A study of Mus musculus with 6 samples.

Results

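The core haematopoietic transcription factors are the DNA-binding proteins and cofactors that hold the stem cell programme of blood in place. The group described here consists of the stem cell heptad (Gata2, Tal1, Lyl1, Lmo2, Runx1, Fli1 and Erg) with Mecom, Gfi1 and Spi1, 10 genes of the 16312 in the count table, chosen by name and matched by Ensembl identifier. Haematopoietic stem cells (HSCs) are the cells at the root of the blood system. They were flow-sorted from bone marrow of old male mice of 22 months and young male mice of 8 to 12 weeks. Their total RNA was sequenced as 3 libraries of each age. Both groups were C57BL/6N ("B6") controls of a parabiosis study, in which animals are joined surgically. The design counts the 3 libraries of each age as biological replicates. The sources used here do not give the surface markers of the sort, the number of cells or any pooling of animals.

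The heptad proteins bind together at regulatory elements of blood stem and progenitor cells, among them elements of their own genes. GATA2 recognises GATA motifs, TAL1 and LYL1 are basic helix-loop-helix (bHLH) proteins that bind E-boxes as partners of E proteins, LMO2 is a LIM-domain bridge that binds no DNA itself, RUNX1 is a Runt-domain protein, and FLI1 and ERG are ETS factors. MECOM (also called EVI1) is a zinc finger regulator needed for HSC maintenance, GFI1 is a zinc finger repressor that restrains HSC proliferation, and SPI1 (PU.1) is an ETS factor that drives myeloid and lymphoid fates. Loss of Gata2, Runx1, Erg or Mecom is known to disturb the formation or upkeep of HSCs.

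The mean levels of these factors differed by at most 1.34-fold between old and young HSCs. None of the 10 passed an adjusted p of 0.05 (edgeR's quasi-likelihood test over 14288 genes), against 3.99% of all genes tested (2.45% higher and 1.54% lower in old mice), so a count of 0 among 10 lies near the background. At an unadjusted p under 0.05 there were 2, Fli1 and Gata2, both higher in old mice, where 16.5% of all genes tested passed that mark and 8.84% did so with the higher level in old mice. Fli1 came closest to a call, with a log2 fold change of 0.42 and an adjusted p of 0.0552, and it was the 1 member called by DESeq2 and by limma-voom. Of the 10 log2 fold changes, 9 were above 0, with a median of 0.15 over the members and −0.02 over all genes tested.

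The total count per library ran from 12494557 to 30931680, and each member had between 120 and 17412 counts in every library. All 10 HSC markers, with Procr, Slamf1 and Hlf among them, were tested and had counts in both groups, summed at 3681 to 3967 CPM (counts scaled to a common library size) in old and 3413 to 4031 CPM in young libraries. Over all genes 350 were called higher and 220 lower in old mice, a split that became 310 and 298 with library size as the only scaling. Young replicate 1 stood apart in blood cell markers. The 12 erythroid markers summed to 356.6 CPM there, 108 and 135 CPM in the other young libraries and 67.1 to 74.2 CPM in old ones. All 9 tested had log2 values below 0, and 3 were called lower in old mice, where 1.54% of all genes tested were called lower. The 10 neutrophil markers summed to 238 CPM in that library against 16.7 and 48.9 CPM in the other young ones. In old libraries they summed to 5.61 to 8.75 CPM. All 5 tested had log2 values below 0, and 4 were called lower. All 10 tested macrophage markers had log2 values below 0, and 7 were called lower in old mice. The list summed to 14.4 to 18.6 CPM in old and 45.4 to 71.5 CPM in young libraries. Fcna, Cd5l, Adgre1 and C1qb were at 0 in every old library. Transcripts of the rapid stimulus response, the immediate early genes, moved the other way, with 18 of 20 called higher, 19 above 0 and 1 below. Their sum was 4620 to 5163 CPM in old against 791 to 995 CPM in young libraries. The T and NK cell markers summed to 70.1 to 86.0 CPM in old and 16.7 to 33.4 CPM in young libraries. Of 5 tested 1 was called higher, the NK receptor gene Klrb1c, named after its values were seen. Klrb1c alone had 57.5, 64.8 and 77.6 CPM in old and 3.70, 11.1 and 9.48 CPM in young libraries. Of the 5 log2 values 2 were above 0 and 3 below. The B cell markers summed to 17.0 to 20.7 CPM in old and 17.4 to 21.9 CPM in young libraries, and none of 3 tested passed. The part of these shifts in the members' values was not tested, and in bulk RNA fewer cells of a type and less RNA per cell cannot be told apart. Library numbers in the labels are consecutive for the old mice and scattered for the young mice, and a processing order along these numbers cannot be told apart from age.

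Because heptad proteins are known to act on each other's genes, the 250 bases before the start sites were searched on both strands. The GATA motif was written as GATAA, the ETS motif as GGAAG, the RUNX motif as TGTGGT, the E-box as CAGNTG and the GFI motif as AAATCA. RefSeq promoters (GRCm38.p6) were at hand for 7 members, with 14 start sites. Gata2, Tal1 and Lyl1 are printed as the member with the smallest p among those 7, the next one, and the paralog of that one, with matches in capitals.
Gata2, chr6:88193641-88193890, plus strand: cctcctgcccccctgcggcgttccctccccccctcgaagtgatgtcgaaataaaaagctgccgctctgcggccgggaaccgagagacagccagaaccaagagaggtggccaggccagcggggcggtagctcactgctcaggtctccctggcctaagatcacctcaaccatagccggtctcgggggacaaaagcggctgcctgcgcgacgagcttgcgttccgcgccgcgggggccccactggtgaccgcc
Tal1, chr4:115056176-115056425, plus strand: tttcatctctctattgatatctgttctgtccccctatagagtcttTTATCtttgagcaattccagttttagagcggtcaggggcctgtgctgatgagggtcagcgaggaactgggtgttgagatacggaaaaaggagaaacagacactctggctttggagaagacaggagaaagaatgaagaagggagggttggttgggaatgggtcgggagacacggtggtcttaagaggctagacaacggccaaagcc
Lyl1, chr8:84701207-84701456, plus strand: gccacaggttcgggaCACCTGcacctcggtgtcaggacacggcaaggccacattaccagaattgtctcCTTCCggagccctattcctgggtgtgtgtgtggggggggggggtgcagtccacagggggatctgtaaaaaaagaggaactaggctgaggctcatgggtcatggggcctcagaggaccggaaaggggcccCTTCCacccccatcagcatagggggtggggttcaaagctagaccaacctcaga
No printed match overlapped another. Gata2 and Tal1 each have another start site, whose window is not printed. The printed Gata2 window held none of the 5 motifs, and neither did the other one (chr6:88198414-88198663). The printed Tal1 window held 1 GATA motif, read on the other strand, and the other one (chr4:115057561-115057810) held 1 ETS motif. The Lyl1 window held 2 ETS motifs and 1 E-box. Over the 14 member windows GATAA stood in 4, GGAAG in 7, CAGNTG in 5, AAATCA in 1 and TGTGGT in 0. Over 32841 RefSeq promoter windows of the same length GATAA stood in 22.6%, GGAAG in 64.1%, CAGNTG in 44.8%, AAATCA in 12.4% and TGTGGT in 14.0%. A match describes the letters of a window and not binding there. Fli1, Lmo2 and Spi1 are named without a promoter.

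Gata2, which keeps HSCs alive and quiescent and lies on chromosome 6 from 88193891 to 88207032 (GRCm38, plus strand), was among the 2 members whose groups did not overlap. It stood at 260.3, 299 and 295 CPM in old and at 231, 241 and 219.9 CPM in young HSCs. All 3 old libraries were above all 3 young ones, as was the case for 11.6% of all genes tested. The means were 285 ± 21.5 CPM in old and 231 ± 10.8 CPM in young mice (SD, n = 3 each), a log2 fold change of 0.30 ± 0.11 SE (95% interval 0.07 to 0.54) that did not pass (edgeR adjusted p = 0.157).

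The bHLH and LIM members act in complexes with GATA factors on E-box and GATA sites. Tal1, the bHLH factor without which no blood forms, on chromosome 4 from 115056426 to 115071755, had 146.96, 163 and 166 CPM in old and 134, 147.22 and 127 CPM in young libraries. The lowest old library and the highest young library thus lay side by side, and the log2 fold change was 0.22 ± 0.12 SE (edgeR adjusted p = 0.393). Lyl1, its closest relative, on chromosome 8 from 84701457 to 84704715, had 59.9, 74.9 and 70.4 CPM in old and 55.8, 64.2 and 75.3 CPM in young HSCs. Its groups were mixed, with young replicate 3 the highest of all 6, and its log2 value of 0.07 ± 0.16 SE became −0.03 without young replicate 1. Lmo2, the bridging protein, on chromosome 2 from 103957986 to 103981878, had 631, 636 and 683 CPM in old and 636, 622 and 532 CPM in young libraries. Young replicate 3 was the single low library, and the log2 value was 0.12 ± 0.10 SE (edgeR adjusted p = 0.618).

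Runx1, required for the first HSCs of the embryo and later for platelet and lymphoid output, lies on chromosome 16 from 92601466 to 92826149 on the minus strand. It had 395, 452 and 421 CPM in old and 419, 469 and 339 CPM in young HSCs. The highest and the lowest library were both young, so the old values lay inside the young range, and the log2 value of 0.05 ± 0.13 SE (edgeR adjusted p = 0.908) turned to −0.0065 with library size as the only scaling. The 95% interval of Runx1 ran from −0.23 to 0.32 on the log2 scale.

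Of the ETS pair, Fli1 and Erg, only Fli1 separated the ages in CPM. Fli1, also a driver of megakaryocyte and endothelial genes, on chromosome 9 from 32422204 to 32542861 on the minus strand, had 328, 359 and 362 CPM in old HSCs. In young HSCs it had 285, 264 and 235 CPM, and every old library was above every young one. The means were 349.7 ± 18.5 CPM in old and 261 ± 24.9 CPM in young mice (SD, n = 3 each), and the log2 fold change was 0.42 ± 0.11 SE (95% interval 0.18 to 0.66, edgeR adjusted p = 0.0552). Among markers of the other cells that use Fli1, 1 of 8 megakaryocyte genes and 3 of 7 endothelial genes were called higher in old mice. Over all genes tested 2.45% were called higher. The megakaryocyte list summed to 259 to 332 CPM in old and 96.1 to 151 CPM in young libraries. Vwf alone had 183, 187 and 248 CPM in old and 23.1, 38.1 and 53.6 CPM in young libraries. Of the 8 megakaryocyte log2 values 5 were above 0 and 3 below. The endothelial list summed to 250.3 to 317 CPM in old and 166 to 241 CPM in young libraries. Of its 7 log2 values 6 were above 0 and 1 below, from −0.13 to 4.22. The part of both lists in the value of Fli1 was not tested. Erg, which with Fli1 sustains adult HSCs, on chromosome 16 from 95359169 to 95586593 on the minus strand, had 519, 549 and 541 CPM in old and 529, 540.3 and 496 CPM in young libraries. These groups overlapped, and Erg's log2 value of 0.04 ± 0.09 SE (edgeR adjusted p = 0.890, 95% interval −0.16 to 0.24) turned to −0.015 with library size as the only scaling.

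**Figure D1:**
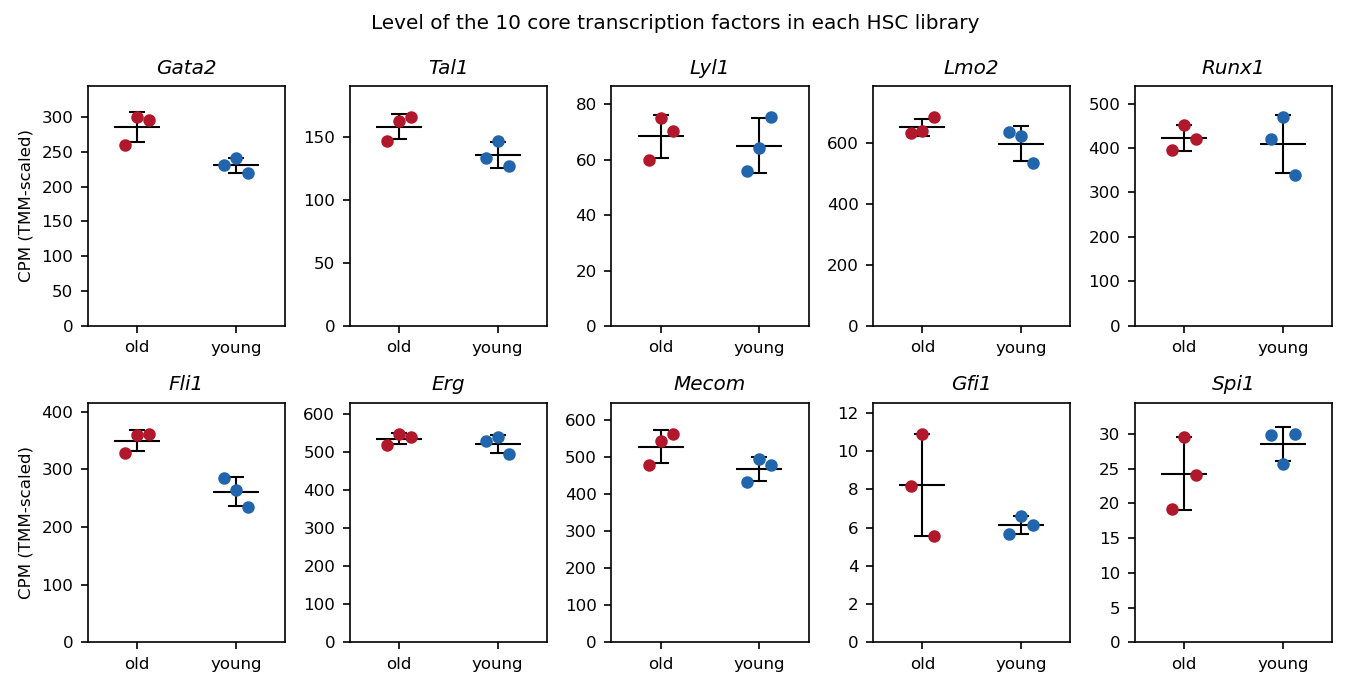
Level of each core factor in CPM (TMM-scaled, linear axes from 0) in the 3 old and 3 young libraries; points are libraries, and bars give the mean and SD of each group. Fli1 and Gata2 show no overlap between the ages, while the young range of Runx1 holds the old one.

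Among the settings run here, the adjusted p of Fli1 fell on either side of 0.05, while its fold change moved less. Over 14 alternatives its log2 value lay between 0.35 and 0.49, and its adjusted p ran from 0.0115 with DESeq2's Wald test to 0.230 without old replicate 3. It passed 0.05 in 6 of the 14, namely with upper-quartile scaling (0.0431), a filter of 1 CPM in 3 libraries (0.049996), DESeq2, limma-voom (0.0453), limma-voom with quality weights (0.0356) and without young replicate 1 (0.0424). Gata2 kept its direction in all 14, with log2 values from 0.25 to 0.37, and passed in none (lowest adjusted p = 0.0994 with DESeq2).

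**Figure D2:**
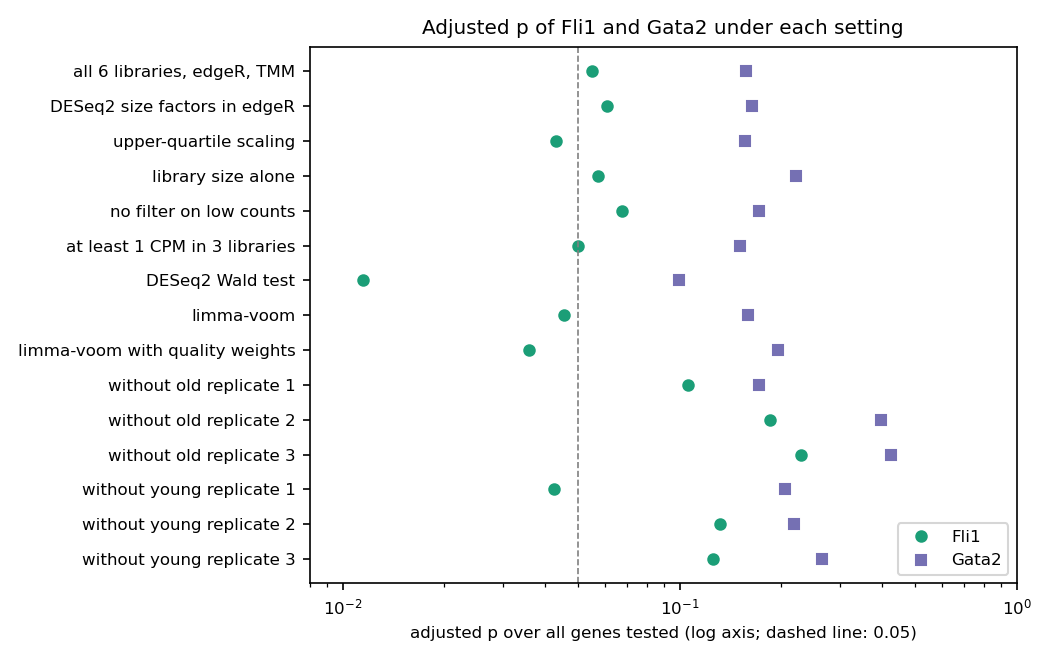
Adjusted p (log axis) of Fli1 and Gata2 for old against young HSCs with all 6 libraries and under the 14 alternatives; the dashed line marks 0.05. Fli1 lies on either side of the line, from 0.0115 to 0.230, and Gata2 always to its right.

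Mecom, whose loss empties the HSC pool in mice, lies on chromosome 3 from 29951296 to 30548008 on the minus strand. It had 480.0, 544 and 564 CPM in old and 433, 494 and 481 CPM in young HSCs. Old replicate 1 was below young replicates 2 and 3, so the groups overlapped, and the log2 value was 0.17 ± 0.10 SE (95% interval −0.05 to 0.40, edgeR adjusted p = 0.465). The authors' deposited table points the other way for Mecom, with a log2 value of 0.34 ± 0.14 SE that runs as young over old (unadjusted p = 0.0147, adjusted p = 0.147). Among the members this opposition was found for Mecom alone, and over all genes tested for 1346 (9.42%). The authors' base mean of Mecom, 10976, was 1.41% above the value from the counts. All 10 members lay within 2%, as did 78.3% of all genes tested.

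For Fli1 the authors' deposited table gives a log2 value (young over old) of −0.20 ± 0.16 SE, thus higher in old mice, and its adjusted p was 0.628. Read as old over young, this value lay below the 0.35 to 0.49 found for Fli1 over the 14 alternatives. For Gata2 the authors' deposited table has −0.34 ± 0.13 SE in the same direction (adjusted p = 0.125). The lowest adjusted p of any member in the authors' table was that of Gata2.

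Gfi1 and Spi1, the repressor and the lineage-driving ETS factor, were the members with the fewest counts. Gfi1, on chromosome 5 from 107716657 to 107726036 on the minus strand, had 8.18, 10.9 and 5.59 CPM in old and 5.69, 6.59 and 6.14 CPM in young libraries. The highest and the lowest value were both from old mice, and the interval of the log2 change was wide, from −0.38 to 1.21 around 0.42 ± 0.36 SE (edgeR adjusted p = 0.645). The transcript A430072P03Rik on the other strand overlaps the exons of Gfi1 by 101 bases and shares 1.05% of its 50-base stretches, and without strand reads from those bases could not be told apart. Spi1, on chromosome 2 from 91082390 to 91115756 on the plus strand, was the 1 member with a negative log2 value, −0.24 ± 0.22 SE (edgeR adjusted p = 0.672). It had 19.2, 29.6 and 24.1 CPM in old and 29.9, 25.7 and 30.0 CPM in young HSCs, with old replicate 2 inside the young range. Spi1 is also abundant in macrophages and neutrophils, whose markers were lower in the old libraries as given above, and their part in its value was not tested.

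For 9 of the 10 members the 95% interval of the change lay within 1 log2 unit (2-fold) of no change, the exception being Gfi1. The same held for 56.1% of all genes tested, whose median SE was 0.258 against 0.113 for the members.

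**Figure D3:**
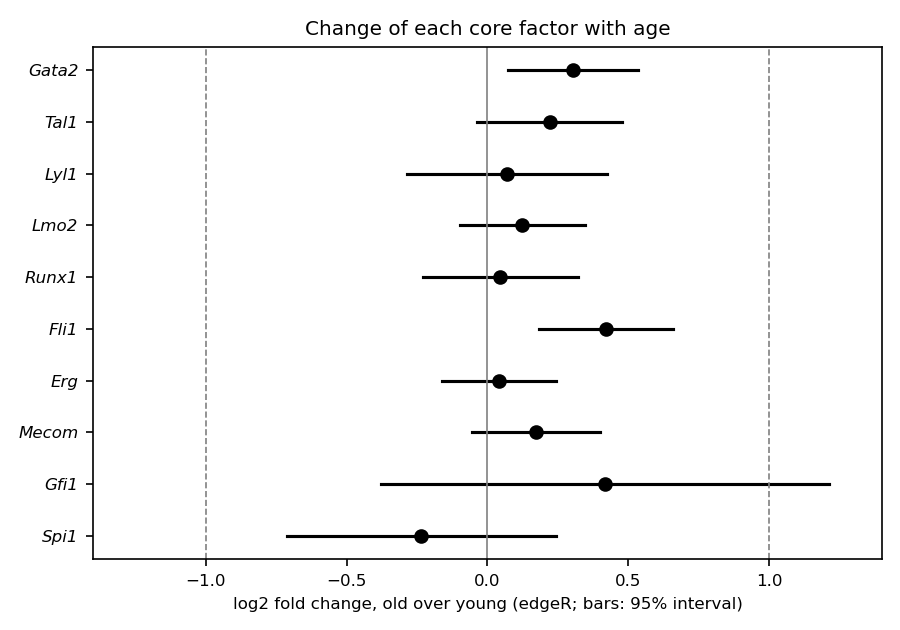
Log2 fold change (old over young, edgeR) of each core factor with its 95% interval; the solid line marks no change and the dashed lines 1 log2 unit either way. The intervals of Fli1 (0.18 to 0.66) and Gata2 (0.07 to 0.54) lie above 0 before adjustment for the number of genes, and only that of Gfi1 crosses a dashed line.

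Levels were compared between members as CPM per kilobase of annotated exon. Lmo2 had the most transcripts, with 300.0 ± 13.2 CPM per kilobase in old and 275 ± 25.9 in young HSCs (SD, n = 3 each). Erg followed with 155 ± 4.44 in old and 151 ± 6.64 in young HSCs, then Fli1 with 100.3 ± 5.31 and 75.0 ± 7.14, and Gata2 with 52.8 ± 3.99 and 42.8 ± 1.998 CPM per kilobase. By this length these 4 did not overlap their neighbours in the order in either age. Mecom, Lyl1, Tal1 and Runx1 came next, between 35.1 and 42.6 CPM per kilobase on average in old and 31.0 and 37.8 in young mice, and each overlapped its neighbour among these 4. Spi1 stood at 9.02 ± 1.94 in old and 10.6 ± 0.904 in young HSCs, and Gfi1 was lowest with 2.58 ± 0.834 and 1.93 ± 0.141 CPM per kilobase. With the longest transcript as the length, the mean levels were 93.0 in old and 82.5 in young mice for Mecom, 79.8 and 64.6 for Gata2, and 72.1 and 69.8 CPM per kilobase for Runx1. Mecom then stood at place 4 in old and place 3 in young mice, Fli1 at places 3 and 4, Gata2 at 5 and 6, and Runx1 at 6 and 5. The order of the members between Erg and Spi1 thus rests on the length used. The heptad together took 2470 ± 113 CPM in old and 2221 ± 172 CPM in young libraries (SD, n = 3 each), and young replicate 2 (2348 CPM) lay above old replicate 1 (2340 CPM).

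Ratios of 2 factors within a library need no scaling between libraries, and 5 pairs were compared by the exact permutation test (two-sided, 20 arrangements), whose smallest possible p with 3 against 3 is 0.1. The Erg to Fli1 ratio on the log2 scale was 0.66, 0.61 and 0.58 in old and 0.89, 1.03 and 1.08 in young HSCs. The groups did not overlap, and the ratio was lower by 0.38 in old mice (exact permutation p = 0.1, 0.167 adjusted over the 5 pairs), with differences between −0.44 and −0.35 when any 1 library was left out. In terms of counts, Fli1 made up 38.7% to 40.1% of the reads of the pair in old and 32.2% to 35.0% in young libraries.

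Gata2 and Spi1 are known to antagonise each other's lineage programmes. Their log2 ratio was 3.76, 3.34 and 3.61 in old and 2.95, 3.23 and 2.87 in young HSCs. The old libraries again all lay above the young ones, with a difference of 0.55 (exact permutation p = 0.1, 0.167 adjusted). Gata2 is replaced by its relative Gata1 as cells become erythroid. Gata1 had 21, 1 and 48 counts in old and 162, 59 and 159 counts in young libraries, which is 0.339%, 0.0280% and 0.739% of the counts of both GATA genes in old and 3.21%, 0.949% and 2.16% in young HSCs. The single count of old replicate 2 has a Clopper-Pearson 95% interval of 0.000709% to 0.156%, which covers counting error only. The log2 ratio of Gata2 to Gata1 was higher by 3.32 in old mice (exact permutation p = 0.1, 0.167 adjusted) and by 1.93 without old replicate 2. The erythroid markers that were lower in the same old libraries are given above, and their part in this ratio was not tested.

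The remaining pairs overlapped between the ages. The log2 ratio of Gfi1 to its relative Gfi1b was −2.23, −1.41 and −3.16 in old and −3.76, −3.65 and −2.64 in young HSCs (exact permutation p = 0.2, 0.25 adjusted). Tal1 to Lyl1 was 1.30, 1.12 and 1.24 in old and 1.26, 1.20 and 0.75 in young HSCs (exact permutation p = 0.6, also adjusted), and its difference of 0.15 became −0.013 without young replicate 3.

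**Figure D4:**
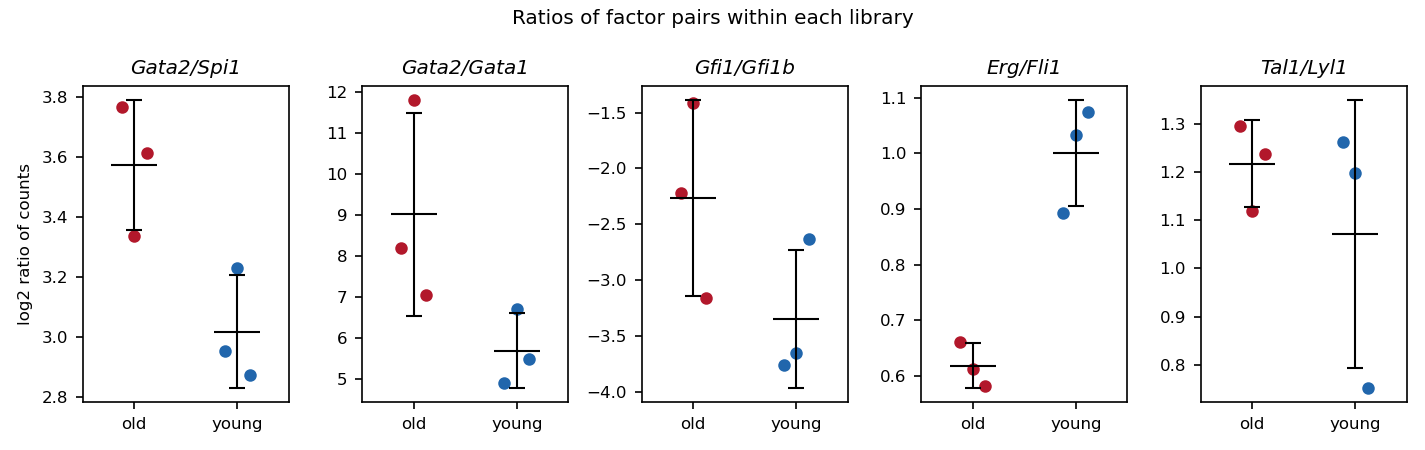
Log2 ratio of the counts of 5 factor pairs within each library, old left and young right, with mean and SD (each panel has its own axis, not starting at 0). Erg/Fli1, Gata2/Spi1 and Gata2/Gata1 show no overlap between the ages; 1 old library, with 1 Gata1 count, lies far above the rest in Gata2/Gata1.

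Around the core factors, 54 relatives, complex partners and other lineage factors were measured and all were tested. The lists were chosen with earlier results of these data known. Of the log2 values 21 were above 0 and 33 below, with a median of −0.06 against −0.02 over all genes tested. In old HSCs 1 gene was called higher and 3 were called lower, where 2.45% of all genes tested were called higher and 1.54% lower. The higher one was Mef2c, a factor of lymphoid and myeloid progenitors, with 560, 654 and 581 CPM in old and 431, 408 and 367 CPM in young HSCs (log2 fold change 0.57 ± 0.11 SE, edgeR adjusted p = 0.0101, and 0.0569 without old replicate 2). The lower ones were Runx2, Satb1 and Klf1.

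Runx2, the paralog of Runx1 best known from bone, fell to 120.3, 157 and 118 CPM in old against 167, 218 and 219 CPM in young HSCs. Its groups did not overlap, and its log2 value was −0.61 ± 0.15 SE (edgeR adjusted p = 0.0444). That call was lost in 5 of 14 alternatives, without a filter (0.0634) and without old replicate 1 (0.186), old replicate 3 (0.228), young replicate 2 (0.138) or young replicate 3 (0.116). Whether Runx2 differed from Runx1 in its change was not tested. Their common partner Cbfb, picked after its values were seen, had a log2 value of −0.05, and none of the other 3 members of the RUNX list passed.

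Satb1, a chromatin organiser of lymphoid cells, was at 6.75, 6.12 and 7.24 CPM in old and 22.5, 36.3 and 15.9 CPM in young HSCs (log2 fold change −1.89 ± 0.32 SE, edgeR adjusted p = 0.00646). It passed in all 14 alternatives. Klf1, the erythroid Krüppel-like factor, was at 0.970, 0.336 and 0.962 CPM in old and 10.5, 3.45 and 2.90 CPM in young HSCs (log2 fold change −2.84, edgeR adjusted p = 0.0369), and lost its call in 6 of 14 alternatives. Its highest library was young replicate 1, the one with the most erythroid marker transcripts, and without it the adjusted p was 0.145.

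None of the 9 bHLH and LIM complex partners passed. Smallest in p were Cbfa2t3, a co-repressor of the TAL1 complex, with a log2 value of −0.34 ± 0.12 SE, and the E protein Tcf4 with 0.23 ± 0.10 SE (edgeR adjusted p = 0.176 and 0.288). The bridging partner Ldb1 stood at 93.6, 95.7 and 98.9 CPM in old and 93.4, 104.8 and 89.1 CPM in young HSCs; it was picked after its values were seen. None of the 14 other ETS genes passed either, with Ets1 (0.71 ± 0.24 SE, edgeR adjusted p = 0.142, and 0.0377 with DESeq2) and Ets2 (0.42 ± 0.17 SE, edgeR adjusted p = 0.251) smallest in p.

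In the GATA list none of 3 passed. Gata1 had a log2 value of −2.18 ± 0.81 SE (edgeR adjusted p = 0.189) and Gata3, the GATA factor of T cells that HSCs also express, had 0.51 ± 0.25 SE (edgeR adjusted p = 0.340). Among 9 relatives and co-repressors of GFI1 and MECOM none passed. Gfi1b stood at 38.3, 29.0 and 49.9 CPM in old and 77.0, 82.7 and 38.2 CPM in young HSCs (log2 value −0.75 ± 0.28 SE, edgeR adjusted p = 0.193). Young replicate 3 was the single low young library, and without it Gfi1b passed (adjusted p = 0.0348). Prdm16, the closest relative of Mecom and itself needed by HSCs, had 0.44 ± 0.17 SE (edgeR adjusted p = 0.198).

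Genes known as targets of the core factors were listed from general knowledge, with earlier results of these data already known. Counts of calls in these lists are therefore description only. Of 35 different genes tested in 4 lists, 17 had log2 values above 0 and 18 below. In old HSCs 4 were called higher and 3 lower, beside 2.45% of all genes tested that were called higher and 1.54% lower. Whether the lists stand apart from other genes was not tested. Of 11 tested targets of SPI1, 1 was called lower, while 4 had log2 values above 0 and 7 below. It was Cybb, the gp91phox subunit of the phagocyte oxidase (0.211, 0.168 and 0.0916 CPM in old, 7.35, 1.45 and 4.04 CPM in young HSCs, edgeR adjusted p = 0.00620). Cybb is a phagocyte gene, and the macrophage and neutrophil markers that were lower in the same libraries are given above. The list median was −0.46. Of 10 tested targets of GATA2, TAL1 and RUNX1, 1 had a log2 value above 0 and 9 below, with a list median of −0.71. Called lower were 2, Klf1 and the myeloperoxidase gene Mpo (log2 value −3.19, edgeR adjusted p = 0.0442). Mpo and Klf1 are also in the neutrophil and erythroid marker lists given above. Mpo lost its call in 7 of 14 alternatives and its log2 value shrank to −1.42 without young replicate 1. Kit, the stem cell factor receptor in this list, stood at 829, 879 and 918 CPM in old and 826, 888 and 930.4 CPM in young HSCs; it was picked after its values were seen.

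Of 7 tested megakaryocyte and endothelial targets of FLI1, ERG and RUNX1, 1 was called higher, while 5 had log2 values above 0 and 2 below. It was Vwf, which encodes von Willebrand factor, with 183, 187 and 248 CPM in old and 23.1, 38.1 and 53.6 CPM in young HSCs (edgeR adjusted p = 0.000357). Vwf was also the 1 gene of the megakaryocyte markers that passed. The list median was 0.25, and Cdh5 and Myl9 had no row. Of 8 genes known to be repressed by GFI1, 3 were called higher, while 7 had log2 values above 0 and 1 below, with a list median of 1.07. Egr1 and Egr2 of this list are also immediate early genes. Among those called were Egr1 (edgeR adjusted p = 4.00e-07) and Id2, an inhibitor of bHLH proteins (log2 value 1.37 ± 0.33 SE, edgeR adjusted p = 0.0417). Id2 lost its call in 5 of 14 alternatives, each of which left out 1 library. Vwf, Egr1 and Cybb passed in all 14 alternatives. The medians describe the lists and were not tested.

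**Figure D5:**
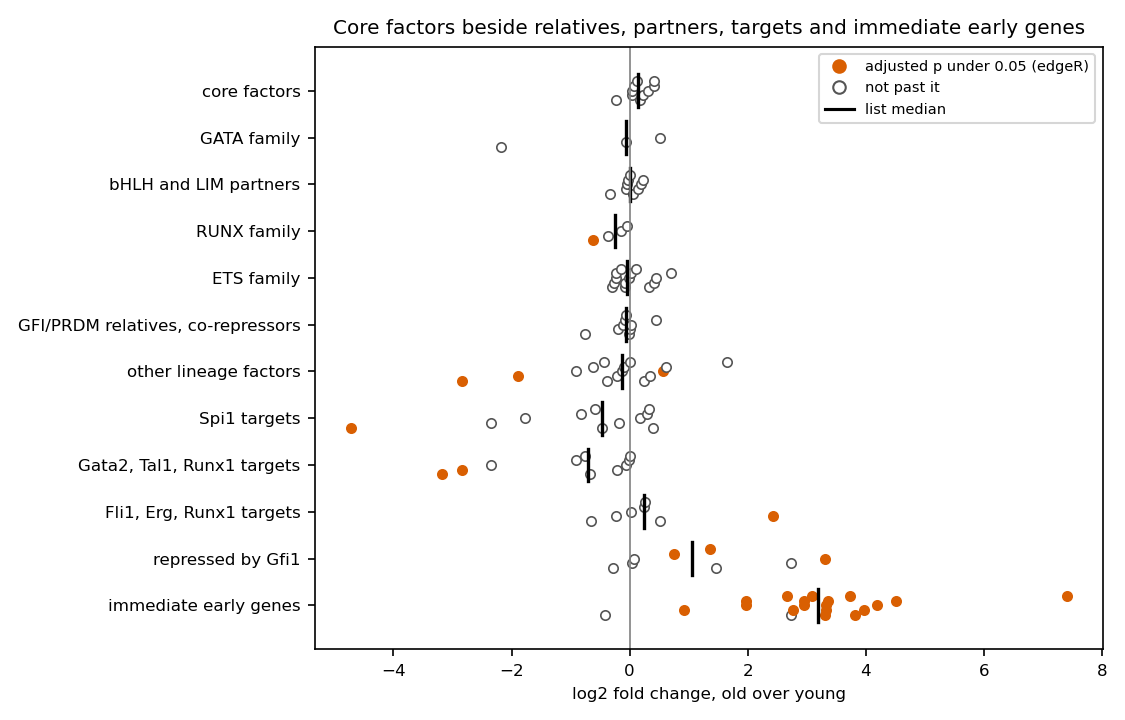
Log2 fold change (old over young) of every tested gene in the core list, the lists of relatives, partners and targets, and the immediate early genes; filled points passed an adjusted p of 0.05 and black bars are list medians. The core factors lie between −0.24 and 0.42 with no filled point, and 18 of 20 immediate early genes are filled.

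Genes with the profile most like a core factor were sought for the 3 members with the smallest p, as the smallest root mean square difference of centred log2 CPM over the 6 libraries among 9267 other genes at 10 CPM or more. Closest to Fli1 were Tmod3, an actin capping protein (difference 0.0224, 334, 359 and 363 CPM in old and 283, 267 and 228 CPM in young HSCs), and the ribosomal protein genes Rpl4 (0.0351) and Rps3 (0.0394). All were chosen by their profile over the same libraries, so their own difference between the ages follows from the choice and is not given as a result. Closest to Gata2 were Cfl2 (0.0290), Zscan29 (0.0373) and Fcho2 (0.0386), and closest to Tal1 were its E protein partner Tcf4 (0.0261), Rpl13 (0.0293) and Dtx3l (0.0384).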

How the data were processed

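RNA of flow-sorted HSCs was purified with a kit for small samples and made into low-input libraries that were sequenced as single-end reads (per the labels' protocols). GRCm38 and the tools Salmon, FastQC, MultiQC and DESeq2 appear in the submitters' processing notes, without versions or roles. The authors deposited estimated counts, whole numbers for 16312 genes in 6 libraries, so none was rounded. Their comparison table holds a base mean (a normalised signal computed by the authors), the authors' log2 fold change with its standard error and a test score, and p-values before and after adjustment, as deposited. The sign of the authors' log2 values was read as young over old, since the opposite direction from the counts then holds for 9.42% of genes tested.

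Identifiers were matched to GENCODE M21 (GRCm38), which named 16301 genes and every member. Tests used R 4.3.3 and edgeR 4.0.16 (default filter, minimum count 10 and total 15, TMM factors 0.955 to 1.06, quasi-likelihood F test, Benjamini-Hochberg adjustment), limma 3.58.1 and DESeq2 1.42.0. All were two-sided. SE was the log2 fold change over the root of F, and 95% intervals used the t distribution. Likeness used log2 CPM with a prior count of 2. Chi-square per degree of freedom between any 2 libraries was 22.5 to 86.9, so no library was a copy. Simulated data served to check the fit.

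Members and lists were chosen with earlier results of these data known. The rule for named genes chose 36, of which 1 is not reported here: the members, the called genes of each partner or target list (otherwise the 2 with the smallest p) and the 3 genes most like each of 3 members. Cbfb, Ldb1, Kit and Klrb1c, outside that rule, are marked in the text. Replicate numbers follow the order of samples. The label of young replicate 2 carries different library numbers in title and description, and its column was matched by title; every fit was repeated without it.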

Additional observations from a re-analysis of the deposited data

How the results depend on the processing

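Of 504 refits of the 36 genes chosen by rule under 14 alternatives each, 452 kept their direction and their side of the threshold, 14 newly passed, 32 no longer passed and 6 changed sign. No core factor was called lower under any alternative. The count of core factors called higher, 0 with all 6 libraries, was 1 (Fli1) with upper-quartile scaling, a filter of 1 CPM in 3 libraries, DESeq2, limma-voom and limma-voom with quality weights, and 0 to 1 with 1 library left out; the cause was not tested. Partner factors called higher numbered 3 with DESeq2 and 0 to 1 with 1 library left out, against 1, and those called lower 5 with DESeq2 and 1 to 3 with 1 library left out, against 3. Signs changed where log2 values were near 0. Erg was at −0.015 and Runx1 at −0.0065 with library size alone, and Lyl1 at −0.013 with quality weights. With 1 library left out Runx1 ran from −0.074 to 0.16, Lyl1 from −0.031 to 0.19 and the Tal1 to Lyl1 ratio from −0.013 to 0.24; the cause was not tested. Over all genes 570 passed, against 1105 with DESeq2 and 322, 345 and 245 without old replicates 1, 2 and 3. No paired analysis was possible because the replicate numbers follow sample order and pair nothing. With 3 libraries a group, an exact test cannot go below 0.1.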
